A study of Homo sapiens with 24 samples.

Results

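CDKN1A, MDM2, BBC3, BAX, TP53INP1, SESN1, FDXR, RRM2B and ZMAT3 are 9 genes that the transcription factor p53 switches on directly. They were chosen by gene symbol, 9 of the 58884 genes listed in 2 expression tables, with the differences between the groups already known. Their levels and differences are therefore a description. Intervals and counts past a threshold for them come from the fit across all genes, are printed beside those of the whole table, and support nothing.

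RNA-seq was carried out on HEK293T cells, a human embryonic kidney line that carries the SV40 large T antigen, to ask how SETD2, the histone methyltransferase that places H3K36me3, alters transcription. The 10 libraries fall into 2 tables. In the first, 2 libraries of WT cells stood beside 2 of KO cells, in which both alleles of SETD2 are disrupted. In the second, 2 further KO libraries stood beside 2 in which KO cells received the whole protein (SETD2 FL, residues 1 to 2564) and 2 in which they received its C-terminal segment (SETD2 C, residues 1404 to 2564). The constructs carried a GFP or Halo tag under a CMV promoter, and cells were collected 72 h after transfection. The KO libraries are labelled untreated, so in SETD2 FL or SETD2 C against KO the construct and the transfection cannot be told apart. SETD2 FL and SETD2 C were both transfected. The labels do not say whether replicates were separate cultures or whether the KO line is 1 clone, so the spread measured here may be technical.

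Levels are given in TPM, a transcript's share of its library, which corrects for transcript length and sums to the same total in every library. The SETD2 transcript itself was not lower in the libraries labelled KO, at 12.62 and 14.82 TPM in WT and 16.19 and 16.31 TPM in KO. In the second table it stood at 11.99 and 12.15 TPM in KO, 439.26 and 421.96 TPM in SETD2 FL and 1329.05 and 1264.32 TPM in SETD2 C. The HEK293 markers KRT8, KRT18, VIM, NEFM and PAX2 were detected in every library, whereas PTPRC, PECAM1, HBB and ALB, which mark other cell types, stayed at or below 0.38 TPM. COL1A1, a fibroblast marker, was present at 6.43 to 12.06 TPM and was the other listed marker of another cell type. Mitochondrially encoded genes took 14.08 and 23.18% of all TPM in WT, 11.99 and 12.43% in KO of the first table, 6.23 and 7.04% in KO of the second, 7.79 and 10.95% in SETD2 FL and 2.93 and 3.37% in SETD2 C. WT replicate 1, with 23.18%, stood apart from its partner.

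As background, p53 is a tetramer that binds DNA at pairs of half-sites and activates genes that halt the cell cycle, repair DNA, alter metabolism or start apoptosis. MDM2, one of its targets, is the ubiquitin ligase that destroys it, which closes a negative feedback loop. SETD2 has been reported to bind p53, and large T antigen also binds p53, so the p53 of HEK293T cells is not that of an unmodified cell.

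Sequences are shown first for the start regions of the genes, because paired half-sites are where p53 would contact them. The p53 half-site consensus, a motif of 10 letters that reads alike on both strands, was searched as 2 half-sites in a row with no spacer and at most 2 mismatches in all, from 3000 bases before to 1000 bases after each RefSeq start on hg38. Of 35116 start windows, 3.29% held such a pair. Of the 14 windows of the 7 genes with an entry, 7 held one, and these belong to 4 genes. A match describes the letters only and is not a measured binding site. All letters are capitals because each line is the paired motif and nothing else.
CDKN1A: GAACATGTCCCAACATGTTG
MDM2: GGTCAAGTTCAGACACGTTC
BAX: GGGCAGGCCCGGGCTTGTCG
ZMAT3: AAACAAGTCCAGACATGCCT

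The CDKN1A pair lies at chr6:36676449-36676468 on the plus strand, at -2265 relative to the RefSeq start. It overlaps the first bases of the gene as GENCODE draws it and is outside the reference transcript. The MDM2 pair, at chr12:68808923-68808942 on the plus strand, is in intron 1 of the reference transcript at -94 or -101 relative to the internal RefSeq starts. The same pair is 746 or 751 bases after the upstream starts, so all 4 MDM2 windows share it. The BAX pair is at chr19:48955213-48955232 on the plus strand, in intron 1 and 338 bases after the start. The ZMAT3 pair, at chr3:179070188-179070207 on the minus strand, is in intron 1, at -865 relative to an internal start. It is the one of the 4 with 0 mismatches, against 2 in each of the others.

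Within the 300 bases around the starts (250 before and 50 after), pairs with a gap of up to 13 bases and at most 2 mismatches occurred in 2.93% of 35116 windows. Such a pair was found in 3 of the 14 windows, 2 of MDM2 and 1 of FDXR. Both windows are shown because MDM2 and FDXR had the largest fitted differences of the 9 genes in SETD2 FL against KO. The capitals mark the half-sites, and the coordinates are those of the RefSeq window on GRCh38.p14, chr12:68808767-68809066 on the plus strand for MDM2 and chr17:74872945-74873244 on the minus strand for FDXR.
MDM2: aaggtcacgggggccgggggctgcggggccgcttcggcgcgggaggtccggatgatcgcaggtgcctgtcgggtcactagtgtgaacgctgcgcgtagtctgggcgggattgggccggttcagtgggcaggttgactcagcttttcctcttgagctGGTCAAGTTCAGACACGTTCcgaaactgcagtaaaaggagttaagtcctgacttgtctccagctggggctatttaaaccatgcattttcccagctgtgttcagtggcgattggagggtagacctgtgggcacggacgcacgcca
FDXR: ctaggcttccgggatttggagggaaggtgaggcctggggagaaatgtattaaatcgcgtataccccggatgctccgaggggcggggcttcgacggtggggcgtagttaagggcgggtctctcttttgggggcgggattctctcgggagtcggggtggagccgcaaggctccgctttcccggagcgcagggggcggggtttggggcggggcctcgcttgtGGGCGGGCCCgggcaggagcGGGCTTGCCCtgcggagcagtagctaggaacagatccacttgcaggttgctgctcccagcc

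The FDXR pair has a spacer of 10 bases, which are in lower case between its half-sites, and lies at chr17:74872996-74873025, at -31 relative to the start. An exact half-site alone occurred in 6.63% of all windows and in 2 of the 14, 1 of SESN1 and 1 of FDXR. The BBC3, CDKN1A, BAX and ZMAT3 windows of 300 bases held none of these motifs.

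CDKN1A (chr6:36676460-36687337, 3 exons in the reference transcript) encodes p21, the inhibitor of cyclin-dependent kinases through which p53 halts the cell cycle. Its level was 23.81 and 27.24 TPM in WT and 27.50 and 24.18 TPM in KO, so these groups overlapped in TPM. After scaling between libraries KO lay below WT without overlap. In the second table CDKN1A was 28.00 and 29.92 TPM in KO, 31.88 and 34.39 TPM in SETD2 FL and 51.86 and 48.17 TPM in SETD2 C. The groups of the second table did not overlap, and both SETD2 C libraries stood well above the other 4. On the log2 scale, fitted on scaled TPM plus 0.5, the difference was 0.63 (SE 0.07) for SETD2 C against KO, 0.46 (SE 0.07) for SETD2 C against SETD2 FL and 0.17 (SE 0.07) for SETD2 FL against KO. For KO against WT it was -0.11, with a 95% interval from -0.31 to 0.09.

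MDM2 (chr12:68808177-68845544, 11 exons), the ligase of the feedback loop, followed another order. It was measured at 75.20 and 72.13 TPM in WT and at 81.49 and 81.04 TPM in KO of the first table. The second table held it at 50.65 and 42.56 TPM in KO, 73.64 and 65.23 TPM in SETD2 FL and 62.51 and 65.26 TPM in SETD2 C. In TPM both transfected groups lay above KO and overlapped each other. After scaling between libraries SETD2 C lay below SETD2 FL without overlap. The fitted log2 difference was 0.55 (SE 0.10) for SETD2 FL against KO and 0.31 (SE 0.10) for SETD2 C against KO. The second value rested in part on KO replicate 4, the lowest library, without which it was 0.19. SETD2 C against SETD2 FL gave -0.24, with an interval from -0.47 to -0.02, and KO against WT gave 0.01, from -0.24 to 0.26.

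Among the genes of apoptosis, TP53INP1 showed the widest differences. This gene (chr8:94925972-94949378, 4 exons) encodes a nuclear protein that promotes the proapoptotic activity of p53 and takes part in autophagy. It was a low transcript, at 1.85 and 1.96 TPM in WT and 2.61 and 2.44 TPM in KO. In the second table it stood at 3.33 and 3.86 TPM in KO, 3.60 and 3.48 TPM in SETD2 FL and 5.86 and 6.77 TPM in SETD2 C. KO and SETD2 FL overlapped, and both SETD2 C libraries were above them. Its log2 difference was 0.60 (SE 0.12) for SETD2 C against KO, 0.63 (SE 0.12) for SETD2 C against SETD2 FL and -0.03 (SE 0.12) for SETD2 FL against KO.

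BBC3 (chr19:47220822-47232766, 4 exons) encodes PUMA, a BH3-only protein that triggers the mitochondrial route of apoptosis. It was the gene with the lowest value in KO against WT, at 10.53 and 10.79 TPM in WT and 9.80 and 7.84 TPM in KO, a log2 difference of -0.39 (SE 0.13). In the second table BBC3 was 17.37 and 16.87 TPM in KO, 17.23 and 18.62 TPM in SETD2 FL and 20.09 and 22.58 TPM in SETD2 C. In TPM SETD2 FL overlapped KO, and SETD2 C lay above both groups. Its log2 difference was 0.16 for SETD2 C against KO, with an interval from -0.01 to 0.34.

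BAX (chr19:48954815-48961798, 6 exons), which forms pores in the outer mitochondrial membrane, was the most abundant of the 9 transcripts. It was measured at 147.01 and 157.31 TPM in WT and 190.33 and 182.10 TPM in KO. In the second table it stood at 148.06 and 146.94 TPM in KO, 162.55 and 173.07 TPM in SETD2 FL and 158.52 and 154.68 TPM in SETD2 C. Thus SETD2 FL, not SETD2 C, held the highest levels. On the log2 scale BAX differed by 0.16 (SE 0.05) in SETD2 FL against KO and by -0.23 (SE 0.05) in SETD2 C against SETD2 FL. The latter was -0.10 without scaling between libraries, and in SETD2 C against KO the value was -0.06 scaled and 0.09 unscaled.

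The remaining 4 genes act in metabolism, repair and RNA control. FDXR (chr17:74862497-74873031, 12 exons), the mitochondrial ferredoxin reductase that feeds electrons to steroid and iron-sulfur cluster synthesis, was at 12.94 and 16.57 TPM in WT and 19.95 and 18.73 TPM in KO. It was at 26.78 and 25.78 TPM in KO of the second table, 34.15 and 37.55 TPM in SETD2 FL and 29.64 and 30.74 TPM in SETD2 C. SETD2 FL was highest, as with BAX. Its log2 difference was 0.42 (SE 0.06) in SETD2 FL against KO, 0.05 (SE 0.06) in SETD2 C against KO and -0.37 (SE 0.06) in SETD2 C against SETD2 FL. In KO against WT it was 0.26, from 0.06 to 0.46.

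SESN1 (chr6:108984309-109094846, 10 exons), a sestrin that restrains mTORC1 signalling, stood at 18.15 and 21.66 TPM in WT and 21.86 and 23.99 TPM in KO. Its levels in the second table were 20.85 and 21.92 TPM in KO, 22.98 and 23.89 TPM in SETD2 FL and 28.54 and 28.00 TPM in SETD2 C. SESN1 had the same order as CDKN1A, with no overlap between the 3 groups and a narrower step. The log2 difference was 0.25 (SE 0.06) in SETD2 C against KO, 0.11 (SE 0.06) in SETD2 FL against KO and 0.08 (SE 0.09) in KO against WT.

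RRM2B (chr8:102204502-102238961, 9 exons), the ribonucleotide reductase subunit that supplies nucleotides outside S phase, was at 8.23 and 10.30 TPM in WT and 12.25 and 12.27 TPM in KO. In the second table it was at 9.72 and 10.76 TPM in KO, 10.93 and 12.38 TPM in SETD2 FL and 12.24 and 13.57 TPM in SETD2 C, where SETD2 FL and SETD2 C overlapped above KO. KO against WT gave 0.27 (SE 0.09) on the log2 scale, the highest value of the 9 genes in that comparison, and SETD2 C against KO gave 0.18 (SE 0.09). ZMAT3 (chr3:178960121-179072215, 6 exons), an RNA-binding zinc finger protein, was at 2.61 and 3.33 TPM in WT, 3.46 and 3.05 TPM in KO, then 5.02 and 4.92 TPM in KO, 5.09 and 4.83 TPM in SETD2 FL and 5.15 and 6.51 TPM in SETD2 C. Its fitted differences were 0.01, -0.02 and 0.07 (SE 0.12 each) for KO against WT, SETD2 FL against KO and SETD2 C against KO. This was the gene whose site had 0 mismatches, and a relation between sites and levels was not tested.

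**Figure D1:**
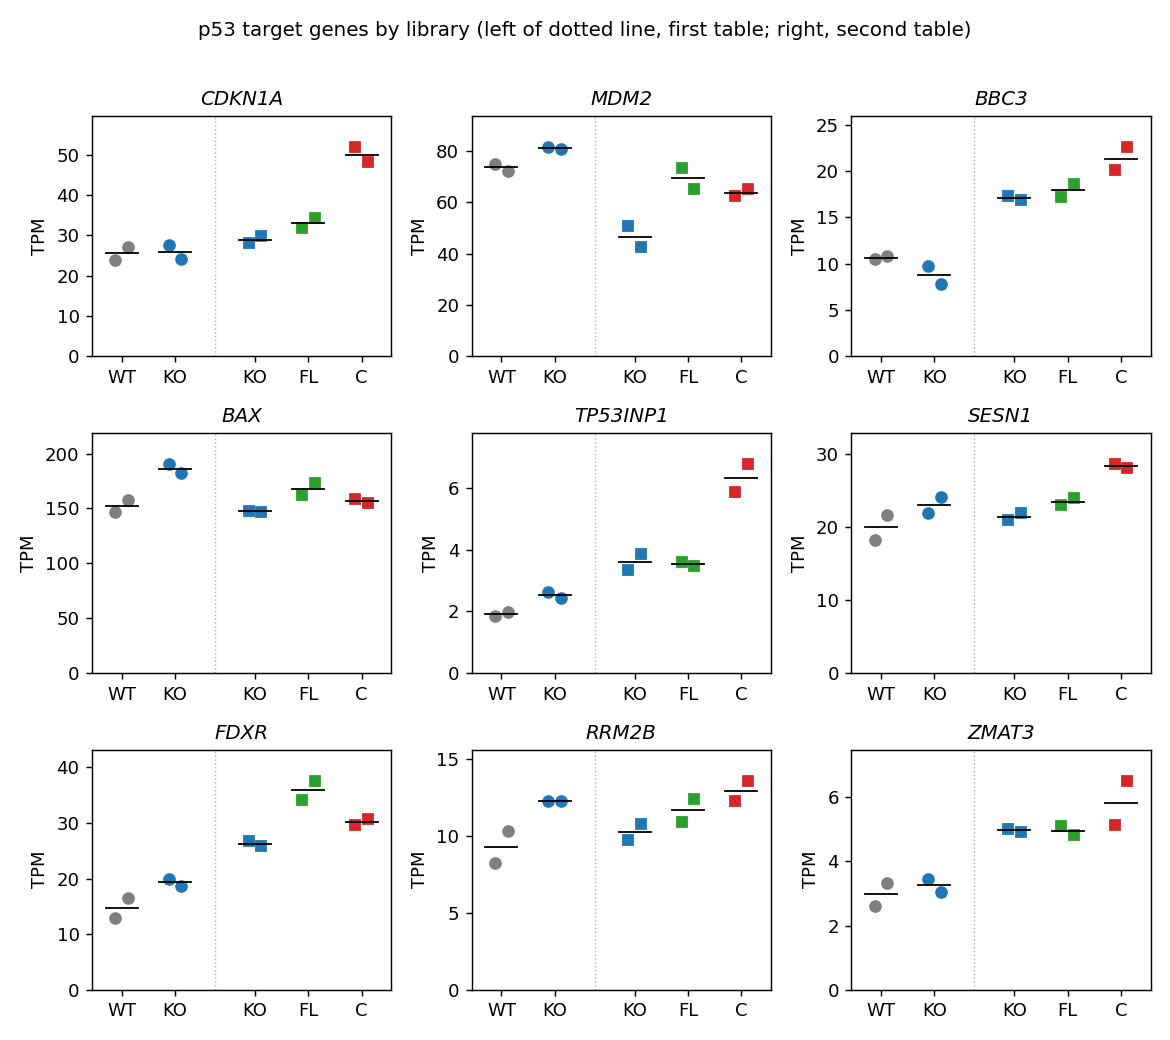
Level in TPM (vertical axes, each from 0) of the 9 p53 target genes in each of the 10 libraries, with a short bar at the mean of each pair. Circles are the first table (WT, KO) and squares the second (KO, SETD2 FL as FL, SETD2 C as C). Among the libraries of the second table, both SETD2 C libraries are highest for CDKN1A, SESN1, TP53INP1, BBC3 and ZMAT3, and both SETD2 FL libraries for BAX and FDXR.

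The second table held both patterns side by side. CDKN1A, SESN1, TP53INP1, BBC3, RRM2B and ZMAT3 had their highest group mean TPM in SETD2 C, with CDKN1A 1.55-fold above KO on the fitted scale. MDM2, BAX and FDXR had theirs in SETD2 FL, with MDM2 1.47-fold and FDXR 1.34-fold above KO. For RRM2B and MDM2 the TPM of SETD2 FL and SETD2 C libraries overlapped. None of the 9 genes reached a 2-fold difference in any comparison.

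Across the table the number of genes past a threshold differed greatly between comparisons, and the counts for the 9 genes are given beside it. A gene was called where it differed 2-fold or more and limma's p, adjusted by Benjamini-Hochberg over all genes, did not exceed 0.05. A second rule used the adjusted p alone. In KO against WT 1.36% of 14746 genes were called at 2-fold, and by adjusted p alone 1.32% were higher and 3.17% lower. Of the 9 genes 0 were called by either rule. An unadjusted p under 0.05 was held by 3 of them and by 3675 of the 14746. The WT and KO libraries did not overlap, with KO higher after scaling, for 4 of the 9 genes and for 27.4% of all genes. In SETD2 FL against KO 0.0816% of 15933 genes were called at 2-fold, 0.176% were higher and 0.0314% lower by adjusted p alone, and 0 of the 9 were called. Here 4 of the 9 and 2535 of the 15933 had an unadjusted p under 0.05. After scaling, SETD2 FL lay above KO without overlap for 7 of the 9 (BBC3 among them, whose unscaled TPM overlapped) and for 24.8% of all genes.

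SETD2 C changed far more of the table. Against KO, 4.06% of genes were called at 2-fold, 21.1% were higher and 15.1% lower by adjusted p alone, and after scaling the groups did not overlap with SETD2 C higher for 40.5%. Of the 9 genes, 4 were higher by adjusted p alone (CDKN1A, MDM2, SESN1 and TP53INP1), 0 were lower, and 7 did not overlap with SETD2 C higher. Fewer than these 4 were called higher when either SETD2 C library was left out. Over all the alternative settings their log2 differences ran from 0.57 to 0.78 for CDKN1A and from 0.19 to 0.46 for MDM2. They ran from 0.21 to 0.39 for SESN1 and from 0.46 to 0.73 for TP53INP1. Against SETD2 FL, 3.78% of genes were called at 2-fold, 21.4% were higher and 16.8% lower, and after scaling 40.3% did not overlap with SETD2 C higher. Here 2 of the 9 were higher (CDKN1A and TP53INP1), 2 were lower (BAX and FDXR), and 4 did not overlap with SETD2 C higher. Because the genes were selected on these contrasts, nothing is read from these counts.

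**Figure D2:**
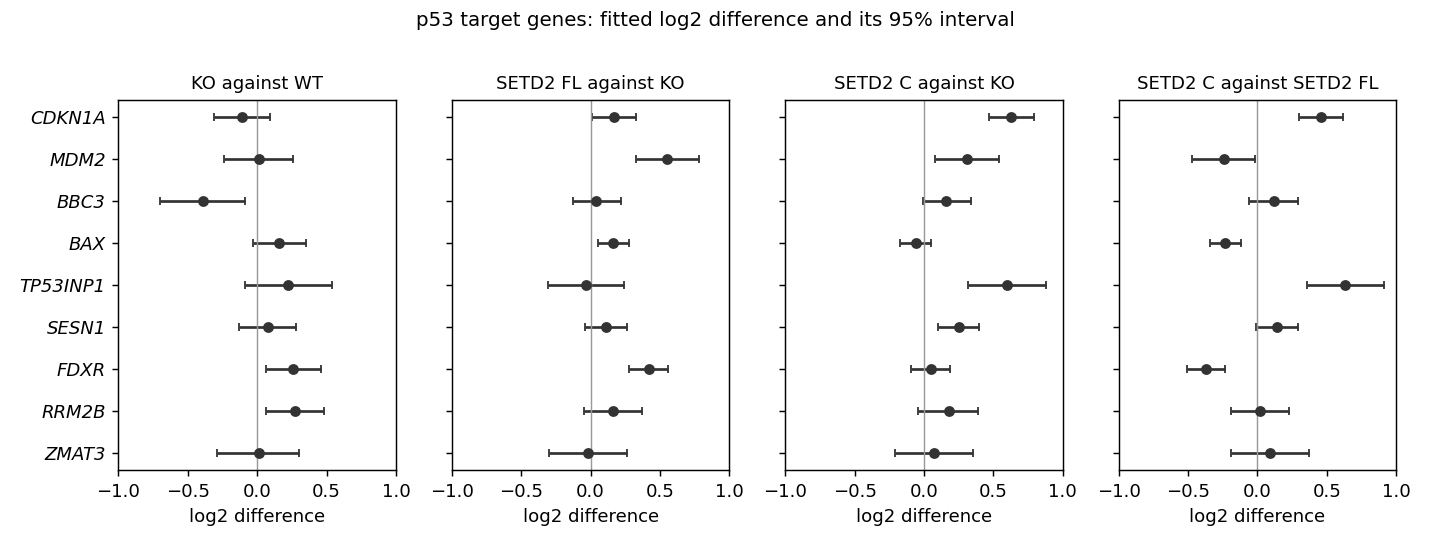
Fitted log2 difference (horizontal axes, on scaled TPM plus 0.5) of the 9 genes in the 4 comparisons, as points with 95% intervals. All points lie between -0.39 and 0.63. CDKN1A and TP53INP1 lie to the right of 0 in SETD2 C against KO and against SETD2 FL, and FDXR and BAX lie to the left of 0 in the latter.

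The wider p53 programme was then tested on 129 other p53-activated genes, listed by function. The lists were written with earlier results of these data known, so their counts are given beside those of the table and are not independent evidence. In KO against WT 111 of them were tested, with a median log2 difference of -0.040 against -0.006 over all genes. By adjusted p 1 rose, or 0.901% of those tested, and 3 fell, or 2.7%, against the 1.32% and 3.17% of the table. PLK2, a polo-like kinase of the arrest and feedback list, rose from 2.49 and 2.79 TPM to 5.88 and 6.66 TPM, a log2 difference of 0.99 (SE 0.12, adjusted p = 0.0102). TNFRSF10D, a decoy receptor for the death ligand TRAIL, fell from 3.03 and 4.10 TPM to 0.04 and 0.01 TPM (adjusted p = 0.0005). It passed the filter on low TPM only through the WT libraries, where it was high, and it was at 0.02 TPM or lower in all 6 libraries of the second table. ATF3 fell by 0.48 and ASTN2 fell by 0.79 on the log2 scale (adjusted p = 0.0247 and 0.0436). Once WT replicate 1 was left out ATF3 and ASTN2 were not called and TNFRSF10D no longer passed the filter, its remaining WT library being at 4.10 TPM. PLK2 was not called without KO replicate 2.

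A set of these targets was higher in SETD2 FL than in KO, and part of the set was about as high in SETD2 C. In SETD2 FL against KO 10 of the 114 tested genes rose and 0 fell, a share of 8.77% against 0.176% of the table. These 10 were 35.7% of the 28 genes called higher in the whole table, SETD2 included. LIF, which is among the 10, passed the filter on low TPM only through transfected libraries, where it was higher. So did SFN, FOSL1, GRHL3, PLXNB3, GLS2 and KCNN4 among the 114, which were not called. LIF raises the number called, and all of these genes raise the counts of positive values and of groups without overlap given here. A filter of 1 TPM or more in every library, which these genes failed, left 9 of the 10 called. In all, 10 of the 104 genes then tested were called higher. The median log2 difference of the 114 genes was 0.152 against 0.006 over all genes. A positive value was held by 90 of the 114, against 8196 of all 15933 genes. After scaling 62 of the 114 did not overlap with SETD2 FL higher, against 3950 of all genes (24.8%). The apoptosis list held 4 of the 10 (TP53I3, AEN, PHLDA3 and TRIAP1) among 17 tested, the arrest and feedback list 2 (PLK2 and PPM1D) among 15, the repair list 1 (DDB2) among 7, and other targets 3 (GDF15, LIF and ZNF79) among 54. In the metabolism and autophagy list 0 of 21 passed, with a median of 0.211. Of these 10 had an unadjusted p under 0.05, against 2535 of all 15933 genes.

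GDF15, a secreted stress cytokine, stood furthest from KO. Its level was 2.77 and 2.88 TPM in KO, 12.26 and 12.14 TPM in SETD2 FL and 9.16 and 9.70 TPM in SETD2 C. The rise was 1.92 (SE 0.09, adjusted p = 0.000176) on the log2 scale in SETD2 FL and 1.44 (SE 0.09, adjusted p = 4.45e-05) in SETD2 C. LIF, a cytokine of the interleukin-6 family, was at 0.28 and 0.40 TPM in KO, 1.91 and 1.85 TPM in SETD2 FL and 1.53 and 1.61 TPM in SETD2 C, so it was low throughout. It passed the filter only through the transfected libraries, where it was higher (1.51, adjusted p = 0.0322, and 1.21, adjusted p = 0.00124). TP53I3, an oxidoreductase, was at 2.08 and 2.17 TPM in KO, 4.61 and 4.99 TPM in SETD2 FL and 4.47 and 4.38 TPM in SETD2 C, with rises of 1.0 (adjusted p = 0.0322) and 0.78 (adjusted p = 0.00138).

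PLK2 was at 4.85 and 5.22 TPM in KO, 9.93 and 9.23 TPM in SETD2 FL and 10.64 and 11.71 TPM in SETD2 C. PHLDA3 was at 14.10 and 13.46 TPM, 19.39 and 21.77 TPM and 19.93 and 19.31 TPM in the same groups. By contrast, ZNF79, a zinc finger gene, PPM1D and AEN were called in SETD2 FL and not in SETD2 C against KO. ZNF79 was at 1.94 and 2.02 TPM in KO, 4.92 and 4.69 TPM in SETD2 FL and 2.65 and 2.02 TPM in SETD2 C. PPM1D, the phosphatase WIP1 that switches p53 signalling off, was at 12.76 and 12.63 TPM in KO, 18.71 and 19.76 TPM in SETD2 FL and 13.70 and 14.52 TPM in SETD2 C. AEN, an exonuclease of apoptotic cells, was at 39.14 and 39.64 TPM in KO, 56.83 and 60.87 TPM in SETD2 FL and 47.81 and 44.99 TPM in SETD2 C. All 3 rose in SETD2 FL (1.08, 0.56 and 0.55 on the log2 scale, adjusted p = 0.0392, 0.037 and 0.033), and SETD2 C fell below SETD2 FL in all 3 (-1.02, -0.56 and -0.47, adjusted p = 0.00134, 0.000881 and 0.000965), a comparison that shares the SETD2 FL libraries. GDF15 (-0.48, adjusted p = 0.00435) and TRIAP1 (-0.20, adjusted p = 0.0177) were called lower in that comparison too, while LIF and TP53I3 had values of -0.30 and -0.22 that were not called.

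The calls in SETD2 FL rested on few libraries. With any 1 of the 4 KO and SETD2 FL libraries left out, GDF15 was the one listed gene still called, and the number of genes called higher at 2-fold in the whole table fell from 12 to between 2 and 6. Of the 10, 1 was called with no filter, 3 without trend and 6 in a fit of these 4 libraries alone, whereas all 10 were called without scaling and with quantile normalization.

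**Figure D3:**
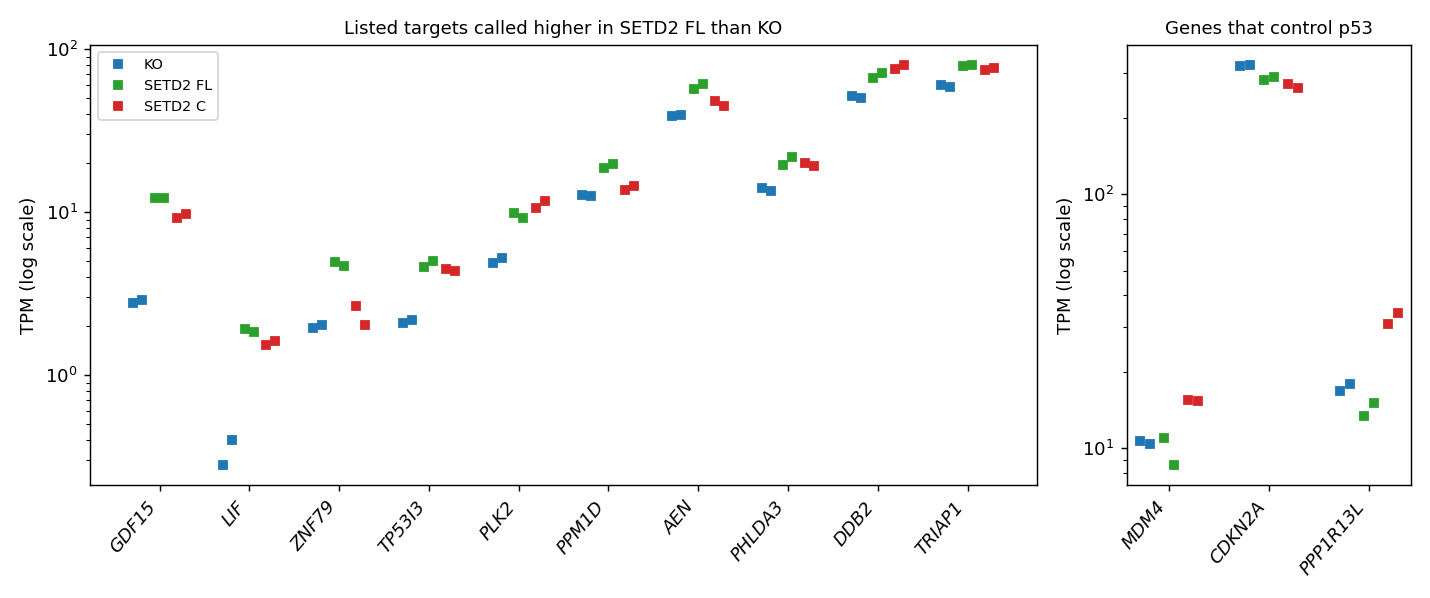
Level in TPM (log axes) of the 10 listed p53 targets called higher in SETD2 FL than in KO, left, and of MDM4, CDKN2A and PPP1R13L, right, in the 6 libraries of the second table, 2 points for each group. In all 10 genes both SETD2 FL libraries are above both KO libraries, and for ZNF79, PPM1D and AEN the SETD2 C libraries lie under those of SETD2 FL. MDM4 and PPP1R13L are highest in SETD2 C.

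With SETD2 C the same lists moved in both directions. Against KO 33 of the 114 genes rose (28.9%, against 21.1% of the table) and 14 fell (12.3%, against 15.1%), with a median of 0.102 against 0.046 over all genes. Without SETD2 C replicate 2 the counts were 20 and 9, and with any other library left out 23 to 27 and 9 to 12. Of the 33, 5 rose at least 2-fold. ATF3, a stress-induced transcription factor, went from 96.97 and 113.61 TPM in KO to 298.22 and 356.98 TPM (1.48, adjusted p = 7.55e-05), and stood at 103.04 and 106.18 TPM in SETD2 FL. GADD45A, which binds PCNA and p21 in growth arrest, went from 65.82 and 63.17 TPM to 132.85 and 163.28 TPM (1.04, adjusted p = 0.000236). PMAIP1, the BH3-only protein NOXA, went from 75.75 and 76.91 TPM to 159.25 and 184.41 TPM (1.01, adjusted p = 0.000101), while SETD2 FL was at 76.86 and 83.92 TPM. GDF15 and LIF were the other 2.

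By function, the shares are to be read beside the 21.1% higher and 15.1% lower of the table. The arrest and feedback list had 7 of 15 higher (46.7%) and 2 lower (CCNG1 and PCNA, 13.3%). The apoptosis list had 8 of 17 higher (47.1%) and 2 lower (BID and SIVA1, 11.8%). Both of these lists had a median above that of all genes, at 0.212 and 0.150. The metabolism and autophagy list had 2 of 21 higher (CPT1C and PRKAB2, 9.52%) and 7 lower (33.3%), with a median of -0.059. With 1 library left out the apoptosis list had 4 to 5 higher and the metabolism list 4 to 6 lower, the latter with a median from -0.039 to 0.029. The 7 were SCO2, TIGAR, PLTP, STEAP3, SESN2, ALDH4A1 and GPX1, which include a copper chaperone of cytochrome oxidase (SCO2, fell by 0.74, adjusted p = 0.000428) and the fructose bisphosphatase that slows glycolysis (TIGAR, fell by 0.67, adjusted p = 0.0148). The repair list had 1 of 7 higher (14.3%), a share under that of the table. This was DDB2, a subunit of the complex that recognises ultraviolet damage, at 50.06 and 51.73 TPM in KO and 75.38 and 79.49 TPM in SETD2 C. Without scaling the 114 genes split into 52 higher and 10 lower, and with quantile normalization into 25 and 14, while the whole table moved from 3359 higher and 2405 lower to 5509 and 1117, and to 2454 and 2787. The metabolism list was then 6 higher and 5 lower without scaling, with a median of 0.084, and 2 and 6 with quantile normalization.

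Set directly against SETD2 FL, the 114 genes in SETD2 C had 14 higher (12.3%, against 21.4% of the table) and 34 lower (29.8%, against 16.8%), with a median of -0.090 against 0.042. The balance depended on the scaling, since without it 26 were higher and 18 lower with a median of 0.037, while quantile normalization gave 15 and 38. The whole table held 3411 higher and 2676 lower genes, which became 5192 and 1508 when libraries were not scaled and 2700 and 3064 with quantile normalization. Leaving out 1 library brought the 34 down to between 18 and 22. The metabolism and autophagy list had 3 of 21 higher and 10 lower (14.3 and 47.6%, against 21.4 and 16.8% of the table), and 4 and 7 without scaling. TIGAR was at 9.04 and 12.24 TPM in SETD2 FL and 4.08 and 5.00 TPM in SETD2 C (fell by 1.25, SE 0.16, adjusted p = 0.00106). SESN2, the sestrin related to SESN1, was at 33.10 and 35.34 TPM in SETD2 FL and 21.17 and 18.33 TPM in SETD2 C (fell by 0.91, adjusted p = 0.000622), whereas SESN1 itself was higher in both SETD2 C libraries. In the apoptosis list 2 of 17 were higher (PMAIP1 and APAF1, 11.8%) and 7 lower (41.2%), among them FAS, BID and AEN, and without scaling these counts were 5 and 4. With 1 library left out 4 to 5 of the apoptosis list and 7 to 9 of the metabolism list were lower.

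**Figure D4:**
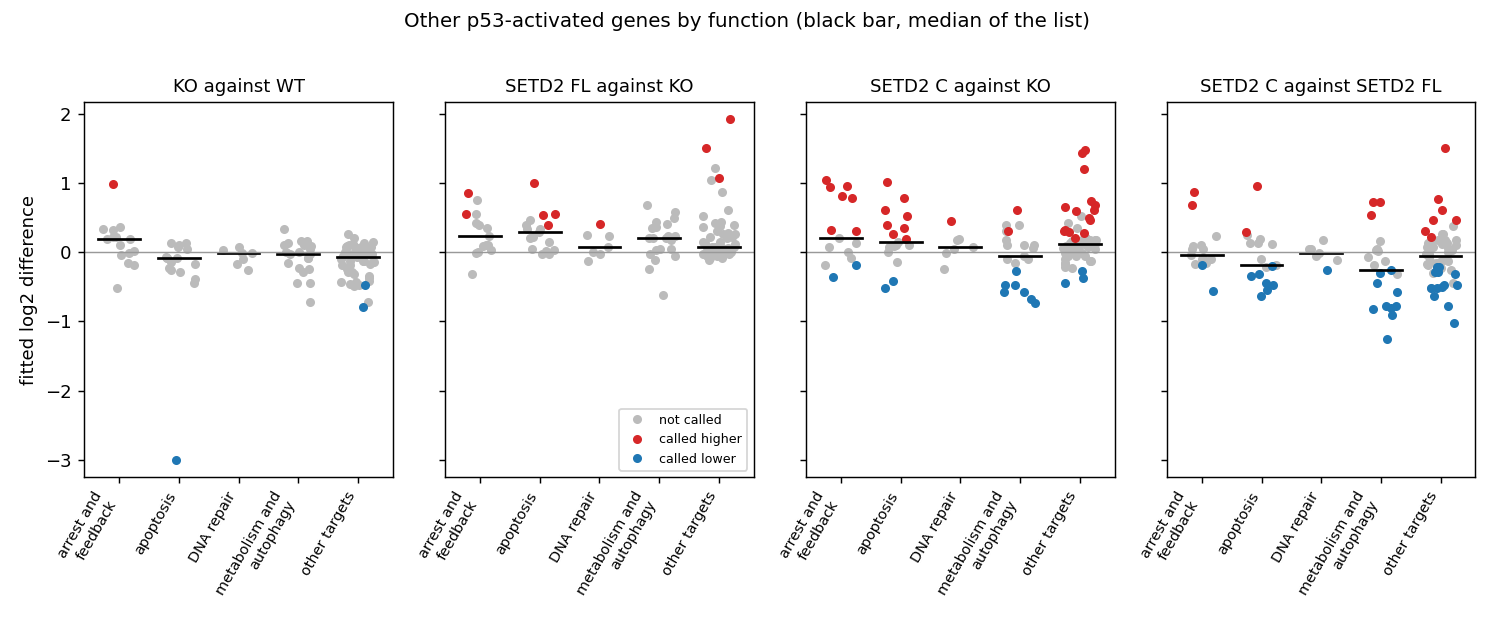
Fitted log2 difference (vertical axis) of each other p53-activated gene, grouped by function, in the 4 comparisons, with genes called by adjusted p alone in red (higher) or blue (lower), uncalled genes in grey and the list median as a black bar. In SETD2 FL against KO the 10 called genes all lie above 0, and in SETD2 C against SETD2 FL 34 called genes lie below 0 and 14 above.

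The genes that set the activity of p53 were examined next. MDM4, which masks the activation domain of p53, was at 10.67 and 10.38 TPM in KO, 10.94 and 8.58 TPM in SETD2 FL and 15.45 and 15.43 TPM in SETD2 C, a rise of 0.39 (adjusted p = 0.0378) over KO. The transcript of CDKN2A, whose ARF product blocks MDM2, was at 321.03 and 323.79 TPM in KO, 280.52 and 289.32 TPM in SETD2 FL and 271.36 and 261.00 TPM in SETD2 C, and fell by 0.42 (adjusted p = 0.000784) in SETD2 C against KO. A TPM per gene does not separate the ARF transcript from that of p16INK4A.

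PPP1R13L, the inhibitory member iASPP of the ASPP family, rose from 16.83 and 17.99 TPM in KO to 30.81 and 34.17 TPM in SETD2 C (0.73, adjusted p = 0.000653). Of the 27 tested genes of this list 2 rose (PPP1R13L and MDM4) and 7 fell in SETD2 C against KO (7.41 and 25.9%, against 21.1 and 15.1% of the table), and the 7 included ATR, HIPK2, TP53BP1 and HUWE1 beside CDKN2A. Without scaling the counts were 6 and 4. With 1 library left out 1 rose and 3 to 6 fell, the fewest without SETD2 C replicate 2, and MDM4 was not called in any of these fits. In KO against WT and in SETD2 FL against KO 0 of 27 were called. At an unadjusted p under 0.05 were 6 and 3, against 3675 of 14746 and 2535 of 15933 over all genes.

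Genes of the G2 and M phases, which p53 represses through p21, were listed as a readout in the other direction. In SETD2 C against KO 10 of 20 rose (50%, against 21.1% of the table) and 1 fell (MYBL2), a median of 0.181. Without scaling the counts were 14 and 0, without trend 6 and 0, and with 1 library left out 5 to 8 rose, the fewest without SETD2 C replicate 1. BUB1, a spindle checkpoint kinase, rose by 0.71 (adjusted p = 0.000123), and CDK1, the mitotic kinase, by 0.57 (adjusted p = 0.000408). CDKN1A was highest in the same libraries, and a link between its level and these genes was not tested. Neither SETD2 FL against KO nor KO against WT called any of the 20, that is 0 genes. In each 2 had an unadjusted p under 0.05, against 2535 of 15933 and 3675 of 14746 over all genes.

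ATF4 is a stress-response factor that also acts on GDF15, ATF3, SESN2 and PMAIP1, so its targets were counted beside those of p53. In KO against WT 6 of 14 fell (42.9%, against 3.17% of the table) and 0 rose, the median being -0.376. The 6 became 1 with no filter, 2 without KO replicate 2, 3 without KO replicate 1 or WT replicate 1 and 7 without WT replicate 2. Those named by their size were NUPR1 from 10.98 and 9.76 TPM to 4.13 and 3.38 TPM (fell by 1.48, adjusted p = 0.00647), CHAC1 (fell by 0.95, adjusted p = 0.0396) and DDIT4 (fell by 0.82, adjusted p = 0.00358). SETD2 FL against KO called 0 of the 14, with 5 at an unadjusted p under 0.05, against 2535 of all 15933 genes. In SETD2 C against KO 3 rose and 6 fell (21.4 and 42.9%, against 21.1 and 15.1% of the table). DDIT4, an inhibitor of mTORC1 that p53 also activates, went from 112.93 and 122.96 TPM to 377.89 and 397.81 TPM (1.57, adjusted p = 6.9e-06), and DDIT3, the factor CHOP, from 21 and 17.74 TPM to 56.05 and 52.92 TPM (1.33, adjusted p = 8.12e-05). STC2 was the third that rose, whereas CHAC1, SLC7A11, PHGDH and ASNS, which serve amino acid and glutathione metabolism, fell by 1.12, 0.92, 0.78 and 0.75 (adjusted p = 0.00147, 0.00384, 4.04e-05 and 8.9e-05). Against SETD2 FL, 4 of the 14 were higher and 9 lower (28.6 and 64.3%, against 21.4 and 16.8% of the table).

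Interferon-stimulated genes, listed because transfected DNA can induce them, were mostly below the filter, with 7 of 18 tested. Of these 0 were called in KO against WT, SETD2 FL against KO or SETD2 C against SETD2 FL. At an unadjusted p under 0.05 were 3, 1 and 2, against 3675 of 14746, 2535 of 15933 and 7775 of 15933 over all genes. In SETD2 C against KO 2 rose (28.6%, against 21.1% of the table), IRF7 (0.89, adjusted p = 0.00722) and IFI6 (0.61, adjusted p = 0.00563). The HEK293 markers KRT8 and NEFM also rose in SETD2 C against KO, by 1.61 and 1.2 on the log2 scale, and so did COL1A1 (0.55, adjusted p = 0.00786), with KRT8 going from 28.20 and 29.30 TPM to 98.08 and 97.93 TPM. The share of TPM in mitochondrially encoded genes, the ATF4 targets and these markers thus moved in the same comparison as CDKN1A and TP53INP1, and their part in the differences was not tested.

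Finally, genes with the profile most like that of CDKN1A and MDM2 were sought over the 10 libraries, as the correlation of log2 values with each table centred on its KO libraries. The points share the table, the construct and the scaling, so the correlations are descriptive. CDKN1A was most like ITGA7, an integrin subunit (r = 0.991), TGM2, a transglutaminase (r = 0.989), and APOBEC3C, a cytidine deaminase (r = 0.985), and 381 of 14533 genes had a correlation above 0.9 with it. Among the other members TP53INP1 (0.838) and SESN1 (0.787) were nearest to CDKN1A, MDM2 stood at 0.422 and BAX at -0.098. ITGA7 was at 7.93 and 8.19 TPM in KO, 8.44 and 9.67 TPM in SETD2 FL and 15.64 and 14.82 TPM in SETD2 C.

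MDM2 was most like MKI67, which encodes the proliferation marker Ki-67 (r = 0.97), AL121900.2, which has only a clone-based name (r = 0.960) and TACC2, a centrosomal protein (r = 0.946), and 23 genes had a correlation above 0.9. The nearest other member was FDXR (0.748). MKI67 stood at 17.85 and 14.33 TPM in KO, 24.42 and 23.10 TPM in SETD2 FL and 23.70 and 24.03 TPM in SETD2 C. Like MDM2, it was lowest in KO replicate 4 and higher in all 4 transfected libraries.

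**Figure D5:**
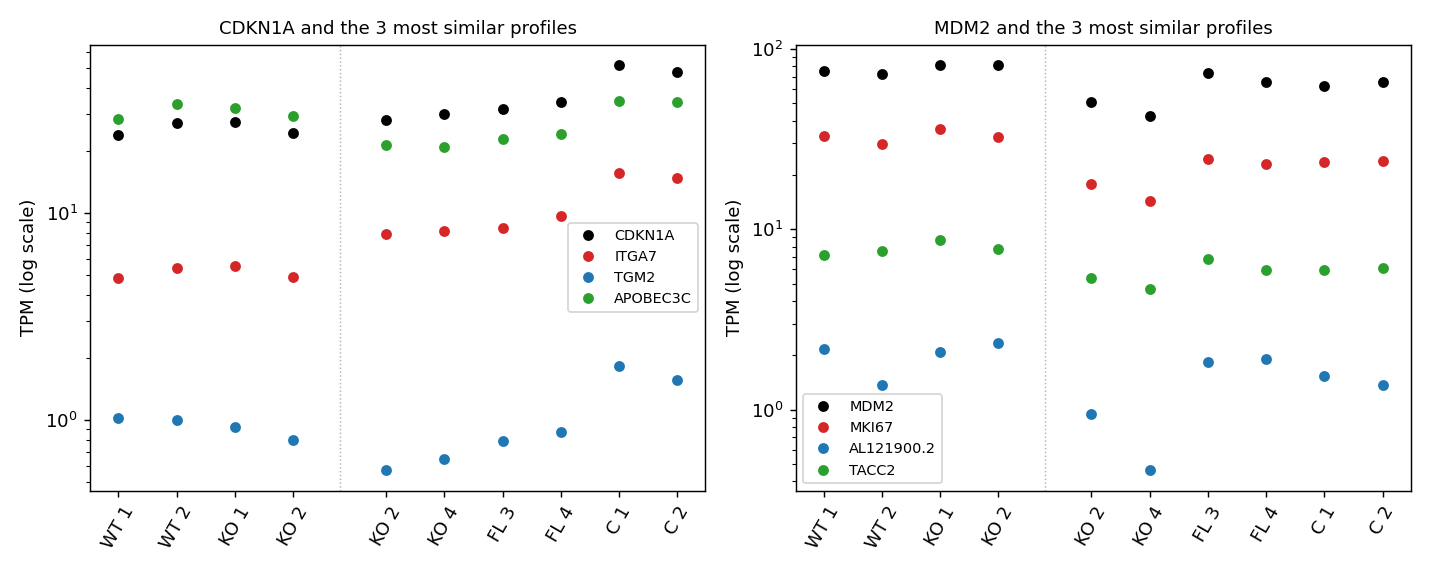
Level in TPM (log axes) of CDKN1A, left, and MDM2, right, beside the 3 genes with the highest correlation of log2 values over the 10 libraries, which are named on the horizontal axis and separated by a dotted line into the 2 tables. The CDKN1A group steps up in both SETD2 C libraries, and the MDM2 group is low in both KO libraries of the second table.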

How the data were processed

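The values used were TPM per gene, which the authors made by demultiplexing with bcl2fastq 2.18, aligning to hg38 and Ensembl 96 with STAR 2.6.1c and estimating abundance with RSEM 1.3.0, and deposited in 2 tables. TPM is relative within a library, so a rise in some genes lowers others, and depth is unknown. Counts were not used here, and neither were the ChIP-seq samples.

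TPM was scaled within each table by the median ratio and 0.5 was added before taking log2. R 4.3.3 and limma 3.58.1 fitted these values (eBayes with trend). Protein-coding and lncRNA genes (GENCODE 44, 58472 of 58884 matched by identifier and 31 by symbol) entered where 2 or more libraries reached 0.5 TPM, which left 14746 genes in the first table and 15933 in the second. The 6 libraries of the second table shared 1 fit. Fold changes on this scale understate those of low genes. Samples were grouped by title. The 9 members and all lists were chosen with earlier results of these data known. Named from the lists were up to 4 genes in each direction and comparison with the largest difference among those called without overlap, with MDM4, CDKN2A and SETD2, while 1 further gene of this rule is not reported here; other list genes named were chosen after their values were seen. Promoter windows are RefSeq's (GRCh38.p14). In simulated data 50 genes each were changed by 0.5, 0.75, 1 and 2 on the log2 scale. Of the 50 changed by 0.5, the fit recovered 43 in KO against WT among 14746 genes and 42 in SETD2 C against KO among 15933. Unchanged genes called numbered 5 and 11. The simulation gave genes of like level the same spread, which real genes need not have, so recovery in the real data may be lower. It was not run for SETD2 FL against KO. In that comparison MDM2 at 0.55 and DRAM1 at 0.69 were not called, whereas AEN at 0.55 was.

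Alternatives were pseudocounts of 0.1 and 1, other filters, no scaling, quantile normalization, no trend, a fit of 4 libraries, a replicate block and each library left out.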

Additional observations from a re-analysis of the deposited data

How the results depend on the processing

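Groups of 2 libraries limit every test, and TPM gives no counting error. No single gene whose alternatives were computed changed direction while called, but without scaling the balance of calls turned for several lists. In SETD2 C against SETD2 FL it turned for the other targets together and for the p53 regulators (from 2 higher and 7 lower to 7 and 2). There the apoptosis list went from 2 and 7 to 5 and 4, and the repair list from 0 and 1 to 1 and 0. In SETD2 C against KO it turned for the metabolism list (from 2 and 7 to 6 and 5) and the p53 regulators (from 2 and 7 to 6 and 4). Replicate numbers 1 and 2 occur in both WT and KO, and same-numbered libraries deviated together with a correlation of 0.147; with the replicate block 1 of the 9 genes was called lower by adjusted p alone in KO against WT (BBC3), and of the other targets 3 were higher and 9 lower. Elsewhere in KO against WT, a pseudocount of 0.1, no scaling and quantile normalization each gave 1 other target higher at 2-fold, a filter of 1 TPM or more in each library gave 0 lower at 2-fold, and no filter gave 0 higher and 1 lower by adjusted p alone. In SETD2 FL against KO, 1 of the 9 was called under the filter of 1 TPM in each library (FDXR) and 2 without scaling (FDXR and MDM2). Other targets at 2-fold there were 2 with a pseudocount of 1 and 1 with no filter, and by adjusted p alone 1 with no filter, 3 without trend and 6 in the fit of 4 libraries. In SETD2 C against KO the other targets at 2-fold were 8 with a pseudocount of 0.1, and 52 were higher by adjusted p alone without scaling. In SETD2 C against SETD2 FL, 4 of the 9 were higher and 1 lower without scaling, and 1 lower with quantile normalization. The other targets at 2-fold there were 2 higher without scaling or with quantile normalization, and 1 lower with a pseudocount of 1 or without scaling, and by adjusted p alone 26 were higher and 18 lower without scaling. The cause of these shifts was not tested. Scaling moved the median of all genes from 0.11 to -0.01 in KO against WT, from 0.18 to 0.05 in SETD2 C against KO and from 0.16 to 0.04 in SETD2 C against SETD2 FL.

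With 1 library left out at a time, the counts of other targets in KO against WT ran from 0 to 1 higher and 0 to 2 lower at 2-fold, and from 0 to 1 higher and 0 to 3 lower by adjusted p alone. In SETD2 FL against KO they were 1 by both rules throughout. In SETD2 C against KO the 9 genes gave 1 to 3 higher, and the other targets 3 to 6 higher at 2-fold, 20 to 27 higher and 9 to 12 lower by adjusted p alone. In SETD2 C against SETD2 FL the 9 genes gave 1 to 3 lower, and the other targets 1 to 2 higher and 1 to 3 lower at 2-fold and 18 to 22 lower by adjusted p alone. A group left with 1 library was assumed to vary like the others.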

Other observations

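The KO libraries of the 2 tables carry the same label and differed in several listed genes, p53 targets among them. This contrast, between tables that were made separately, was not tested. The genes named were picked after their values were seen, and how many of all genes differed was not counted. CREBBP was at 24.56 and 23.12 TPM in the first table and 6.54 and 7.79 TPM in the second. PLK1 was at 221.61 and 209.67 TPM against 85.03 and 77.88 TPM. CDKN1A differed little, at 27.50 and 24.18 TPM against 28.00 and 29.92 TPM. MDM2 was at 81.49 and 81.04 TPM in the first table and 50.65 and 42.56 TPM in the second. BBC3 was at 9.80 and 7.84 TPM against 17.37 and 16.87 TPM. TIGAR was at 26.09 and 22.27 TPM against 7.70 and 5.98 TPM, and ATF3 at 47.42 and 42.94 TPM against 96.97 and 113.61 TPM. TNFRSF10D was at 0.04 TPM or lower in all 4 of these KO libraries.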
